A study of Mus musculus with 6 samples.

Results

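The genes described here encode the proteasome: every gene of the table whose symbol begins with Psma, Psmb, Psmc, Psmd, Psme, Psmf or Psmg followed by a digit, pseudogenes left out. This rule took 50 of the 15092 genes, and all 50 passed the filter on low counts that left 13816 genes for testing. The study sequenced polyadenylated RNA from livers of C57BL/6J mice, 3 libraries labelled wild type (WT 1 to 3) and 3 labelled CRY1 KO (CRY1 KO 1 to 3). CRY1 is a repressor of the circadian clock. The labels give the cell type as hepatocyte, state no treatment, and give neither the knockout allele nor age or time of collection, nor what the prefix of the library names stands for. Nothing in them says that the libraries come from separate animals, so each p-value measures only the spread between these libraries.

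Cry1 itself, the gene named in the labels, stood at 4.80, 6.89 and 7.24 CPM (counts-per-million of the scaled library) in WT 1, 2 and 3 and at 6.95, 6.41 and 5.22 CPM in CRY1 KO 1, 2 and 3. The groups overlapped, and an exact two-sided permutation test gave p = 1, where the smallest p that 3 against 3 libraries can give is 0.1. The count of Cry1 therefore did not separate the groups. Without the allele a whole-gene count cannot check the genotype, and "CRY1 KO" below names libraries by their label only. The libraries held between 79708703 and 91316332 counts. All 9 hepatocyte markers, led by Alb, were abundant in every library, but markers of other liver cells were present too: 12 Kupffer cell markers summed to 677, 416 and 260 CPM in WT 1, 2 and 3 and to 242 to 246 CPM in the CRY1 KO libraries. WT 1 also stood apart in a red cell list of globin genes and Alas2. The 5 genes summed to 2972 CPM in WT 1 and to 581 to 1024 CPM in the other 5 libraries, while Alas2 alone was at 93.3 to 137 CPM in all 6. In liver RNA of this kind, fewer cells of a type and less RNA per cell cannot be told apart.

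The proteasome is the protease that degrades ubiquitin-tagged proteins. Its core particle is a barrel of alpha rings and beta rings, with the active sites on some of the beta subunits, and the regulatory particle at its ends recognises ubiquitin, unfolds the substrate with a ring of ATPases and feeds it in. In cells exposed to interferon gamma, and constitutively in many immune cells, the active beta subunits are exchanged for the immunoproteasome subunits Psmb8, Psmb9 and Psmb10, which favour peptides for MHC class I. In liver, as elsewhere, the transcription factor Nfe2l1 (NRF1) raises proteasome genes when proteasome activity is short.

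Most proteasome genes had slightly lower levels in the libraries labelled CRY1 KO, with the largest differences in the immunoproteasome subunits, but no single gene passed the test. Of the 50 genes, 41 had a negative log2 difference (CRY1 KO minus WT), 82.0% against 52.7% of all tested genes, and the median was -0.17 against -0.02 over all tested genes. In edgeR's quasi-likelihood test, with p-values adjusted by Benjamini-Hochberg across the 13816 genes and a threshold of 0.05, 0 proteasome genes were called in either direction. Of all tested genes 1.7% were called, 0.644% lower and 1.06% higher. At an unadjusted edgeR p under 0.05, 14 of the 50 were lower, or 28.0% against 9.84% of all tested genes, and 1, Psmf1, was higher. DESeq2, on the same counts, called 4 lower (Psmb8, Psmb9, Psmc5 and Psmd4), against 3.97% of all tested genes. In 14 genes every CRY1 KO library lay below every WT library, again 28.0%, against 12.7% of all tested genes, and in 2, Psme3 and Psmf1, every CRY1 KO library lay above, against 14.6%. These genes were measured in the same 6 libraries, so they are not independent of each other.

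The counts of proteasome genes depend on single libraries. At an unadjusted edgeR p under 0.05 the count lower was 6 without WT 1 (9.6% of all genes tested then), 5 without WT 2 (6.47%), 24 without WT 3 (12.7%), 9 without CRY1 KO 1 (7.73%), 8 without CRY1 KO 2 (6.44%) and 4 without CRY1 KO 3 (5.98%). Together the proteasome genes took 0.301%, 0.318% and 0.306% of the counts of WT 1, 2 and 3, and of CRY1 KO 1, 2 and 3 they took 0.279%, 0.265% and 0.275%. After scaling, the WT libraries summed to 3192, 3180 and 2825 CPM over these genes, where the CRY1 KO libraries reached 2837, 2847 and 2576 CPM. On that scale WT 3 lay just below 2 of the CRY1 KO libraries and far from WT 1 and WT 2. Without WT 3, edgeR called 8 proteasome genes lower (Psmb8, Psmb9, Psmb10, Psmc4, Psmc5, Psmd4, Psme1 and Psme2), where 2.63% of all tested genes were called lower. Without CRY1 KO 3, the lowest of the CRY1 KO libraries, the median over the 50 genes was -0.11 and 0 were called.

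**Figure D1:**
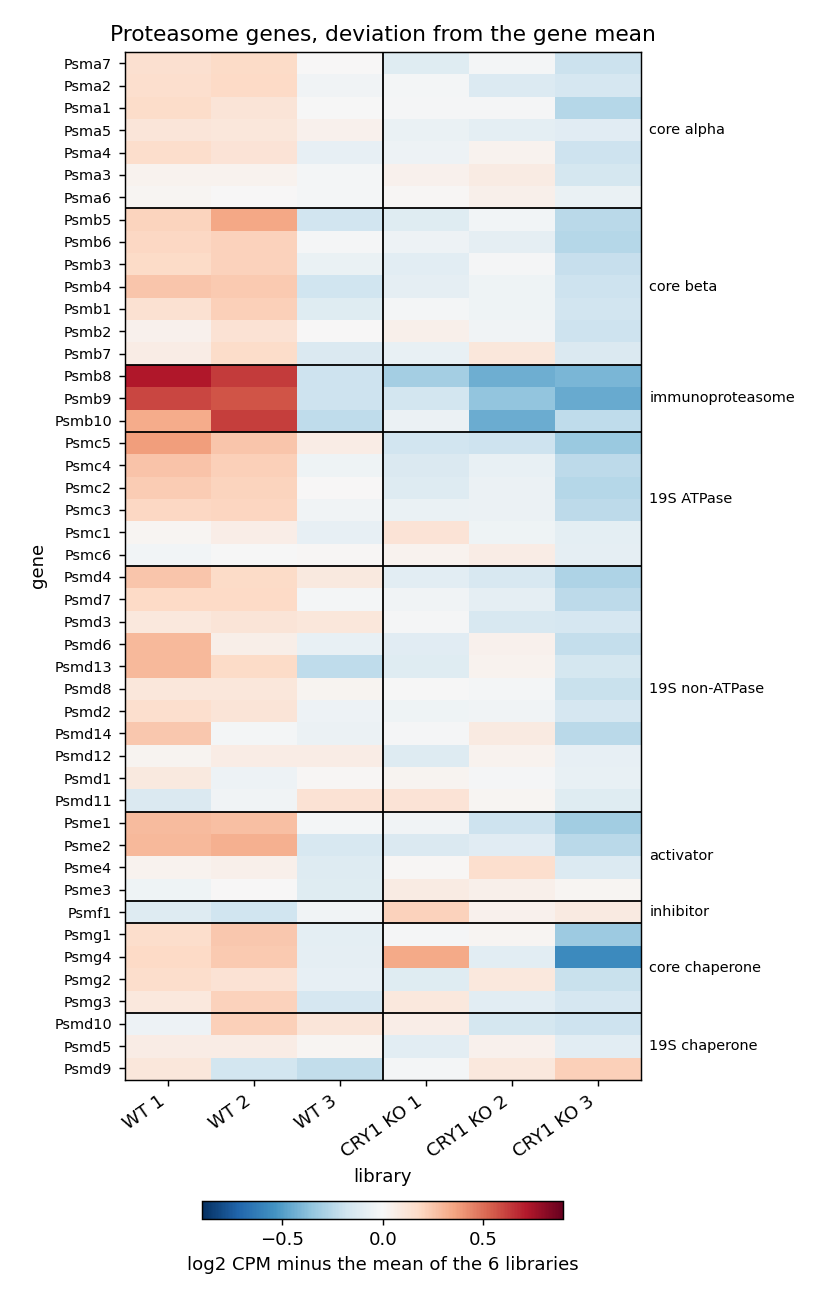
Level of 46 proteasome genes in each library, as log2 CPM minus that gene's mean over the 6 libraries (colour). Rows are genes by role and columns are libraries. The near-silent Psma8, Psme2b and Psmc3ip and the non-subunit Psme3ip1 are left out. WT 1 and WT 2 are above the mean for most genes, WT 3 lies nearer to it, and CRY1 KO 3 is below it for most genes.

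In the core particle all 14 constitutive subunits had negative differences, with a median of -0.17. The 7 alpha subunits, which form the outer rings and the gate, ran from -0.21 in Psma7 to -0.00 in Psma6. Psma7 stood at 98.1, 99.6 and 88.7 CPM in WT 1, 2 and 3 and at 82.0, 87.5 and 77.6 CPM in CRY1 KO 1, 2 and 3. Every CRY1 KO library was below every WT library, by -0.21 on the log2 scale (SE 0.09, edgeR adjusted p = 0.222). Psma5, another ring subunit, stood at 50.7, 50.4 and 48.2 CPM against 45.0, 44.3 and 43.7 CPM, again without overlap (log2 difference -0.17, edgeR adjusted p = 0.258). Psma6 shows the other end of the class, with group means of 74.5 ± 0.826 CPM and 74.4 ± 2.65 CPM (SD, n = 3). The difference of Psma6 had a 95% limma interval of -0.18 to 0.17.

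The 7 constitutive beta subunits had a median of -0.21 and ran from -0.26 in Psmb5 to -0.07 in Psmb7. Psmb6, the caspase-like active subunit, stood at 114.0, 115.5 and 99.4 CPM in WT 1, 2 and 3 and at 97.2, 94.96 and 83.9 CPM in CRY1 KO 1, 2 and 3. It was the only beta subunit of this class whose groups did not overlap (log2 difference -0.25, SE 0.10, edgeR adjusted p = 0.200). Psmb5, the chymotrypsin-like active subunit, stood at 71.4, 79.1 and 55.1 CPM against 57.8, 61.3 and 52.6 CPM. WT 3 lay inside the CRY1 KO range, and the log2 difference was -0.26 (SE 0.14, edgeR adjusted p = 0.312). Psmb7, the trypsin-like active subunit, stood at 86.8, 92.9 and 75.9 CPM against 79.3, 89.1 and 75.7 CPM. Its groups overlapped widely, with a log2 difference of -0.07 and a 95% limma interval of -0.30 to 0.17. Psmb3, a structural beta subunit, had a log2 difference of -0.21 with overlapping groups (edgeR adjusted p = 0.268). Psma8, the testis form of an alpha subunit, was near silent at 0.322 to 0.996 CPM.

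**Figure D2:**
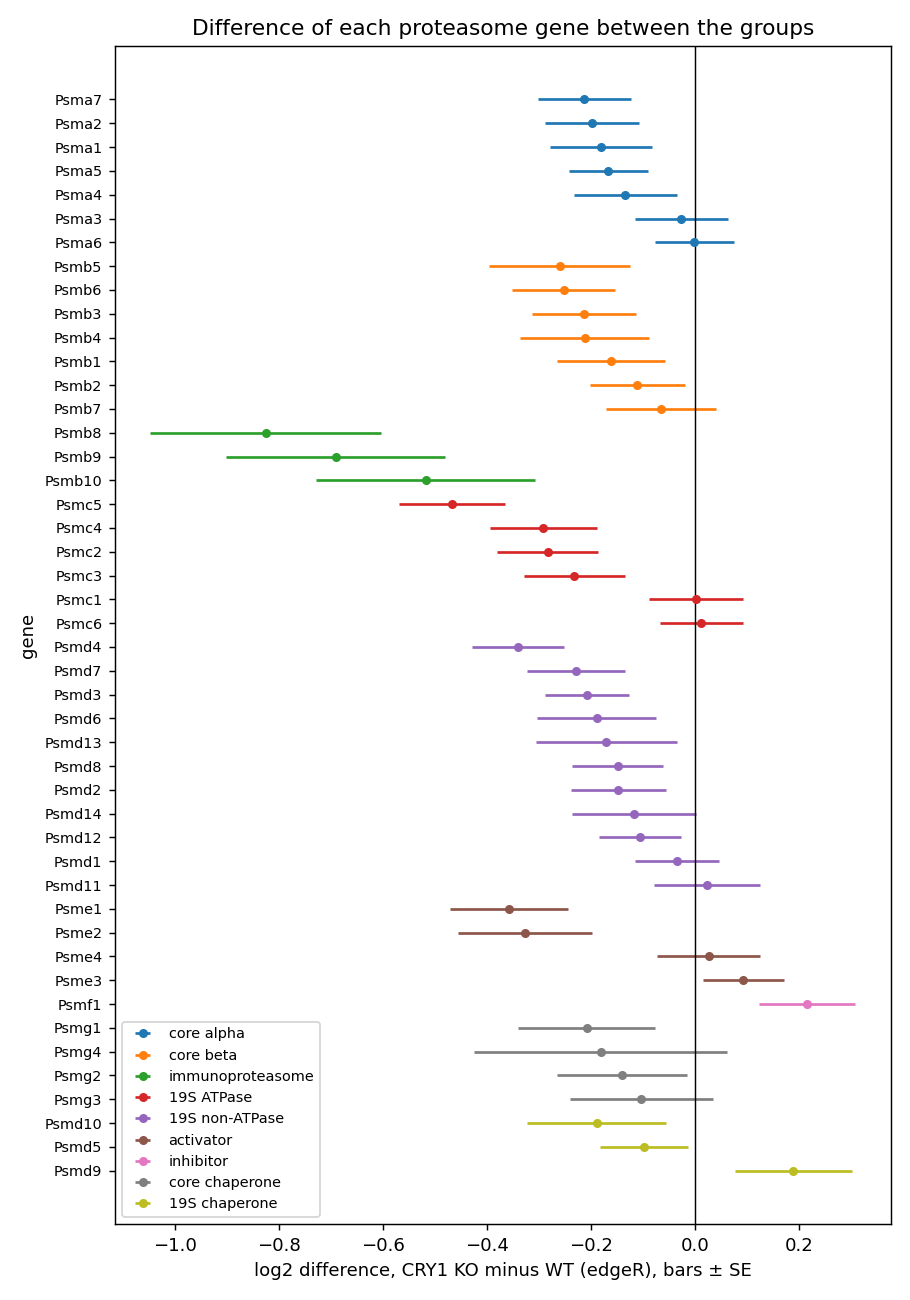
Log2 difference of 46 proteasome genes between the libraries labelled CRY1 KO and WT from edgeR (points) with its standard error (bars), by role in colour. The line at 0 marks equal levels. The 3 immunoproteasome subunits lie farthest to the left, followed by Psmc5, and Psmf1 lies farthest to the right.

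The 3 immunoproteasome subunits had the largest negative differences of all subunits, from -0.52 to -0.83, against -0.17 for the median of the constitutive core. Psmb8, which takes the place of Psmb5, stood at 30.4, 28.5 and 16.2 CPM in WT 1, 2 and 3 and at 14.9, 13.6 and 13.9 CPM in CRY1 KO 1, 2 and 3. The groups did not overlap, but WT 3 lay close to the CRY1 KO libraries and far from WT 1 and WT 2. The group means were 25.04 ± 7.70 CPM and 14.1 ± 0.694 CPM (SD, n = 3), so the CRY1 KO mean was 56.4% of the WT mean. The log2 difference was -0.83 (SE 0.22, edgeR adjusted p = 0.101, DESeq2 adjusted p = 0.00536). Psmb9, which replaces Psmb6, stood at 13.9, 13.5 and 8.03 CPM against 8.15, 7.14 and 6.68 CPM. WT 3 fell below CRY1 KO 1, and the log2 difference was -0.69 (SE 0.21, edgeR adjusted p = 0.122, DESeq2 adjusted p = 0.0292). Psmb10, which replaces Psmb7, stood at 26.9, 32.9 and 18.3 CPM against 20.6, 15.7 and 18.3 CPM. Its groups overlapped as well, at -0.52 on the log2 scale (SE 0.21, edgeR adjusted p = 0.222, DESeq2 adjusted p = 0.105). Without WT 3 the median of the 3 genes was -0.90, and without WT 1 it was -0.56.

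**Figure D3:**
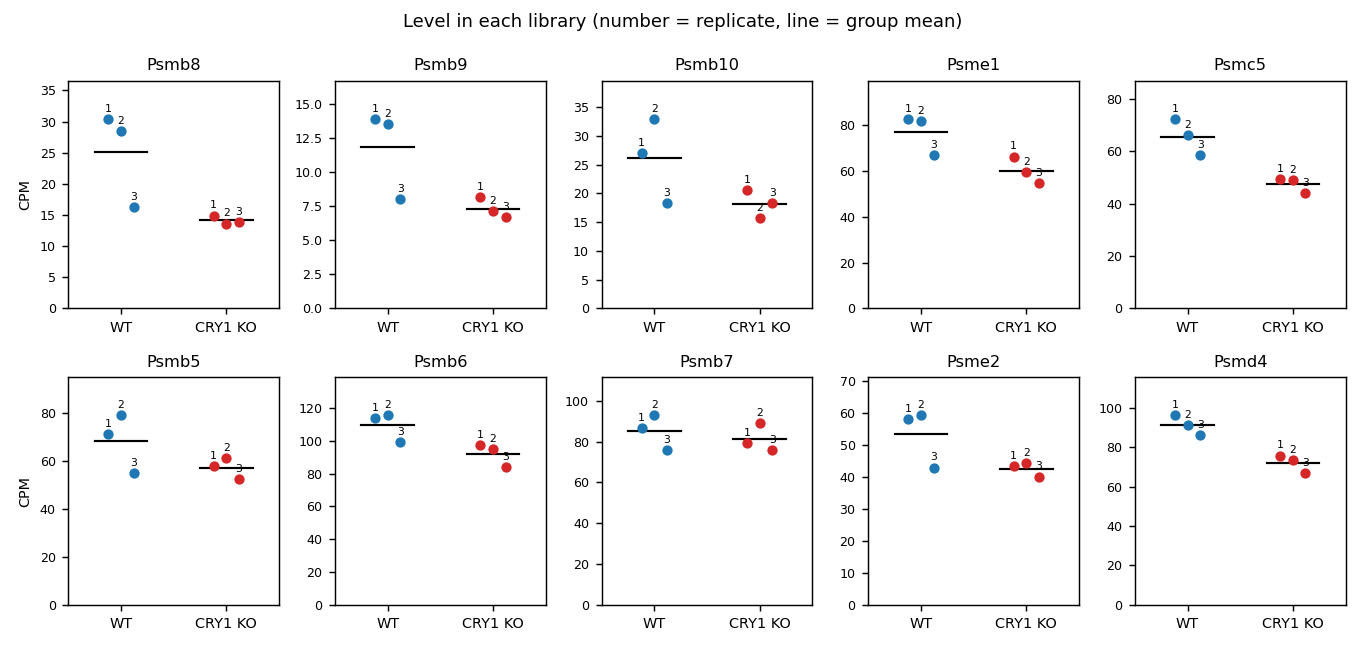
CPM of the 3 immunoproteasome subunits, the 3 constitutive subunits they replace, the activators Psme1 and Psme2, and the regulatory subunits Psmc5 and Psmd4 in each library. Points are libraries marked with their replicate number, lines are group means, and every axis starts at 0. For Psmb8, WT 1 and WT 2 are at 30.4 and 28.5 CPM and the other 4 libraries between 13.6 and 16.2 CPM.

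Each immunosubunit was also set against the subunit it replaces within the same library, which removes the scaling between libraries. WT 1, 2 and 3 had a log2 ratio of Psmb8 to Psmb5 of -1.23, -1.47 and -1.76, where CRY1 KO 1, 2 and 3 had -1.95, -2.17 and -1.92. These groups did not overlap, and the means differed by -0.53 (exact two-sided permutation p = 0.1, the smallest the design allows, 0.3 after Benjamini-Hochberg adjustment over the 3 ratios). For Psmb9 to Psmb6 the ratio was -3.03, -3.09 and -3.63 against -3.57, -3.73 and -3.65, a difference of -0.40 (exact permutation p = 0.2). For Psmb10 to Psmb7 it was -1.69, -1.50 and -2.05 against -1.94, -2.50 and -2.05, a difference of -0.42 (exact permutation p = 0.3). WT 3 lay inside the CRY1 KO range in the last 2 ratios. Without CRY1 KO 2 the last of these differences was -0.25, the smallest of any ratio when 1 library was left out. The immunosubunits were also scarce beside the constitutive core. Per kilobase of transcript, their WT means were 8.75 (Psmb9), 15.4 (Psmb8) and 19.9 (Psmb10) CPM per kb, below every constitutive core subunit, which ran from 21.2 (Psma2) to 137 (Psmb6) CPM per kb.

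Kupffer cell and general leukocyte markers moved with the immunoproteasome subunits across libraries. Red cell markers did so in part, and the other marker lists varied. The 3 subunits had a median log2 deviation from their gene means of 0.60, 0.62 and -0.19 in WT 1, 2 and 3. In CRY1 KO 1, 2 and 3 it was -0.17, -0.44 and -0.41. The 14 constitutive core subunits had smaller deviations of the same signs, 0.15, 0.17 and -0.03 against -0.04, -0.02 and -0.19. For the 12 Kupffer cell markers the same deviation was 1.07, 0.33 and -0.34 against -0.39, -0.36 and -0.34. By this median WT 3 again lay with the CRY1 KO libraries. WT 1 and WT 2 differed more from each other than in the immunoproteasome subunits. Yet in 8 of the 12 (66.7%) every CRY1 KO library lay below every WT library, against 12.7% of all tested genes. All 12 Kupffer cell markers had negative differences, against 52.7% of all tested genes, and none was at 0 in any library. Of these 12, edgeR called 0, and 8 (66.7%) were lower at an unadjusted edgeR p under 0.05, against 9.84%. DESeq2 called 6 lower, against 3.97% of all tested genes. The 5 general leukocyte markers were negative as well and summed to 26.9 to 43.4 CPM in WT and 21.8 to 27.9 CPM in CRY1 KO. They had median deviations of 0.64, 0.34 and -0.08 against -0.30, -0.37 and -0.09, with WT 3 close to CRY1 KO 3. In the 5 red cell markers the medians were 1.74, 0.11 and -0.42 against -0.47, -0.73 and -0.23, and WT 3 lay inside the CRY1 KO range. The 8 T and NK cell markers were near silent, summing to 3.89 to 4.70 CPM in WT and 2.27 to 3.61 CPM in CRY1 KO, with Cd3d at 0 in CRY1 KO 1. Their median deviations were 0.24, 0.80 and 0.29 against -0.55, -0.17 and -0.07, so WT 3 did not lie with the CRY1 KO libraries there. Nor did it in 6 B and plasma cell markers, at -0.30, 0.57 and 0.55 against -0.34, -0.26 and -0.52. Apart from Jchain these were near silent too, at 0.211 to 1.36 CPM. The 6 endothelial markers had medians of 0.05, -0.14 and 0.00 against -0.09, -0.01 and 0.14. Hepatocyte markers had library medians between -0.07 and 0.04, over genes that went both ways. Tat stood at 2105, 783 and 557 CPM in WT 1, 2 and 3 and at 1580 to 2197 CPM in CRY1 KO. Pck1 stood at 2633, 1024 and 1006 CPM against 2789 to 3418 CPM. In both genes WT 1 was nearer to the CRY1 KO libraries than to WT 2 and WT 3. Pck1 and Ass1 were above all WT libraries in every CRY1 KO library (log2 differences of 1.001 and 0.48) and Apoa1 and Fgb below (-0.16 and -0.22), and none was called by edgeR, while DESeq2 called Ass1 higher (adjusted p = 0.032). The part of these other cells in the immunoproteasome difference was not tested.

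**Figure D4:**
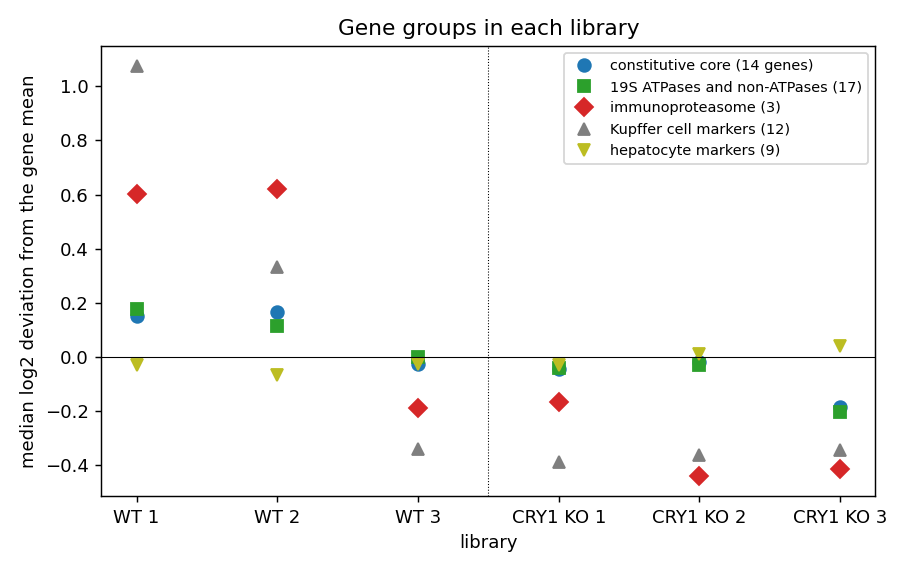
Median log2 deviation from the gene mean in each library (vertical axis) for 14 constitutive core subunits, 17 regulatory subunits, 3 immunoproteasome subunits, 12 Kupffer cell markers and 9 hepatocyte markers. Immunoproteasome and Kupffer cell medians are high in WT 1 and WT 2 and below 0 in WT 3 and the CRY1 KO libraries. Constitutive core medians have the same signs at smaller size. Regulatory medians differ from these in sign only in WT 3, at 0.00. Hepatocyte medians stay between -0.07 and 0.04.

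The upstream sequences of Psmb8 and Psmb9 are shown because these are the immunoproteasome genes that DESeq2 called, and because Psmb9 lies head to head with Tap1, the peptide transporter of the same pathway, so that 1 stretch of 225 bases separates both starts. Sequences are from RefSeq on GRCm38.p6, read 5′ to 3′ toward the Psm gene, and capitals mark a match to a searched motif on either strand. They lie on chromosome 17, at chr17:34187331-34187555 (minus strand, the whole stretch between Psmb9 and Tap1) and chr17:34197945-34198194 (plus strand, the 250 bases before the Psmb8 start).
Psmb9 to Tap1: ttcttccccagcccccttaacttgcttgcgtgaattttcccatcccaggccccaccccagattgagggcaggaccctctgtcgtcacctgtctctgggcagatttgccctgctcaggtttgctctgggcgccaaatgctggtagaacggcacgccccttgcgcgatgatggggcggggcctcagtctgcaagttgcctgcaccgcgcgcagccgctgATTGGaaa
Psmb8: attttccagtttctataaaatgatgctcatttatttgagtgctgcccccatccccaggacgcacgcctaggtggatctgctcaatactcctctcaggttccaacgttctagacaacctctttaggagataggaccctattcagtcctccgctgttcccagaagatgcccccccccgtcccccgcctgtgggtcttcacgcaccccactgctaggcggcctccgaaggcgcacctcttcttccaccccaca
In the stretch between Psmb9 and Tap1 the capitals mark a CCAAT box (CCAAT, bound by NF-Y), and the Psmb8 window holds none of the 4 searched motifs. Tap1 stood at 19.3, 21.4 and 18.7 CPM in WT 1, 2 and 3 and at 16.0, 14.2 and 13.8 CPM in CRY1 KO 1, 2 and 3. Here WT 3 stayed above all CRY1 KO libraries, unlike in Psmb9, and the log2 difference was -0.43 (SE 0.10, edgeR adjusted p = 0.0724, DESeq2 adjusted p = 0.0121).

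The regulatory particle, read here from 6 ATPases and the 11 non-ATPase subunits with a Psm symbol, had 14 of 17 negative differences. The median was -0.17. In 8 of the 17 (47.1%) every CRY1 KO library was below every WT library, against 12.7% of all tested genes. The ATPases divided: Psmc2, Psmc3, Psmc4 and Psmc5 had differences of -0.23 to -0.47 without overlap, while Psmc1 and Psmc6 were at 0.00 and 0.01. Psmc5, an ATPase of the unfolding ring, had the lowest p of all 50 genes. It stood at 72.4, 66.2 and 58.5 CPM in WT 1, 2 and 3 and at 49.4, 48.9 and 44.2 CPM in CRY1 KO 1, 2 and 3. The group means were 65.7 ± 6.97 CPM and 47.5 ± 2.86 CPM (SD, n = 3), a gap wider than the spread in either group. The log2 difference was -0.47 (SE 0.10, edgeR adjusted p = 0.0606, DESeq2 adjusted p = 0.00434). Psmc2, in the same ring, stood at 82.6, 81.1 and 70.7 CPM against 65.3, 68.2 and 59.1 CPM (log2 difference -0.28, edgeR adjusted p = 0.153). Psmc6, also in the ring, stood at 66.5, 67.5 and 68.3 CPM against 69.1, 70.7 and 64.0 CPM, with overlap and a 95% limma interval of -0.17 to 0.19. Whether the ATPases differ from each other in their response was not tested. Psmc1, Psmc6 and Psmd11 turn negative when libraries are not scaled beyond their totals, so their sign depends on the scaling.

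Among the non-ATPase subunits Psmd4, an intrinsic ubiquitin receptor, had the largest difference. It stood at 96.3, 91.5 and 86.3 CPM in WT 1, 2 and 3 and at 75.8, 73.5 and 67.0 CPM in CRY1 KO 1, 2 and 3. The gap between the groups was wider than the spread in either, and the log2 difference was -0.34 (SE 0.09, edgeR adjusted p = 0.0845, DESeq2 adjusted p = 0.0193). Psmd3, a scaffold subunit of the lid, stood at 94.7, 96.4 and 95.2 CPM against 87.9, 80.1 and 79.7 CPM. WT 3 was not set apart here, and the groups did not overlap (log2 difference -0.21, edgeR adjusted p = 0.196). Psmd11, another lid subunit, had the highest difference of the class, 0.02, with values of 83.8, 90.0 and 100.4 CPM against 100.2, 93.0 and 85.2 CPM. The remaining 8 non-ATPase subunits had differences of -0.23 to -0.04. Per kilobase, WT means of the regulatory subunits ran from 24.8 (Psmd13) to 68.7 (Psmd8) CPM per kb.

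The 250 bases upstream of Psmc5 and Psmd4 are shown because these are the constitutive subunits that DESeq2 called. They lie at chr11:106255935-106256184 (plus strand) and chr3:95042615-95042864 (minus strand) on GRCm38.p6, from RefSeq, read 5′ to 3′ toward the gene, with motif matches in capitals.
Psmc5: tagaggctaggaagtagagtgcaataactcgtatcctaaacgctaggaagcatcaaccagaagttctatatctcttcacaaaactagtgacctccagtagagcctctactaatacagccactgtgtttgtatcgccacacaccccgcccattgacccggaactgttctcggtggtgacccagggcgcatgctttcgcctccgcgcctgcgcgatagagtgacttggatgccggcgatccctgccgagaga
Psmd4: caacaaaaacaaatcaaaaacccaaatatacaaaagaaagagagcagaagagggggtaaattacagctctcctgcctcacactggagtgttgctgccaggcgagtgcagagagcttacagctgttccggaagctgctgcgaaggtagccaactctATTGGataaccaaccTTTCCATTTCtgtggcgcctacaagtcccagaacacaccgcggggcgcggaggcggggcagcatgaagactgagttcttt
Upstream of Psmd4 the capitals mark a CCAAT box and then an interferon response element (GAAA, any 2 bases and GAAA, the motif of IRF factors), both read on the opposite strand and not overlapping. In the Psmc5 window none of the 4 searched motifs was present. RefSeq's table held windows for 40 of the 48 subunit and factor genes. On both strands, the antioxidant response element TGACNNNGC, the motif of NRF1 and NRF2, was present in 5 of 40 (12.5%, against 11.5% of all 27025 genes in the table), in Psmb5, Psmb6, Psmc6, Psmd9 and Psmd12. The interferon response element was present in 3 (7.5% against 3.46%) and the CCAAT box in 13 (32.5% against 37.5%). All of these shares are near those of all genes or rest on 5 genes or fewer.

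The activators cap the core in place of the regulatory particle. Psme1 and Psme2 form the interferon-inducible PA28 cap. Psme1 stood at 82.6, 81.6 and 66.8 CPM in WT 1, 2 and 3 and at 66.2, 59.4 and 54.6 CPM in CRY1 KO 1, 2 and 3. The groups were narrowly apart, and the log2 difference was -0.36 (SE 0.11, edgeR adjusted p = 0.135). Psme2 stood at 58.3, 59.3 and 43.0 CPM against 43.5, 44.3 and 40.2 CPM, with WT 3 inside the CRY1 KO range (log2 difference -0.33, edgeR adjusted p = 0.204). Reads of Psme2 and its near copy Psme2b may be hard to assign, and Psme2b was near silent at 0.123 to 0.335 CPM. Psme3, the nuclear PA28 subunit, stood at 49.4, 50.7 and 47.0 CPM against 53.3, 52.2 and 51.2 CPM. Every CRY1 KO library was above every WT library, by a log2 difference of 0.09 (edgeR adjusted p = 0.533). Psme4, the PA200 cap, had a difference of 0.03.

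Psmf1 (PI31), known as an inhibitor of the core in vitro, had the largest positive difference of the 48 subunits and factors. It stood at 21.3, 20.4 and 22.6 CPM in WT 1, 2 and 3 and at 26.7, 23.7 and 24.4 CPM in CRY1 KO 1, 2 and 3, with no overlap. Its log2 difference of 0.21 (SE 0.09) had an edgeR adjusted p of 0.234. The 4 core assembly chaperones, which pair alpha subunits, had differences from -0.21 in Psmg1 to -0.10 in Psmg3, all with overlapping groups. The 3 assembly chaperones of the regulatory particle had differences of -0.19 in Psmd10, -0.10 in Psmd5 and 0.19 in Psmd9. Psme3ip1 and Psmc3ip match the symbol rule but are no subunits: Psme3ip1, a partner of Psme3, had a difference of 0.17, and Psmc3ip, a meiotic recombination factor, stood at 0.112 to 0.459 CPM.

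Of 8 regulators of proteasome genes 1 was called higher by edgeR, against 1.06% of all tested genes. Differences were positive in 7 of the 8, and in 6537 of all 13816 tested genes. Of the 7 regulators with a positive difference, Ddi2, Ngly1, Bach1, Mafg and Mafk were at 0.07 to 0.17 with overlapping groups. Nfe2l2 (NRF2), which induces proteasome genes under oxidative stress, was 1 of 2 genes in the pathway lists that passed the test. It stood at 45.7, 40.9 and 49.0 CPM in WT 1, 2 and 3 and at 77.6, 70.1 and 63.5 CPM in CRY1 KO 1, 2 and 3. The groups were well apart, and Nfe2l2 rose by 0.64 on the log2 scale (SE 0.11, edgeR adjusted p = 0.0347). This call was lost without library scaling (edgeR adjusted p = 0.0630) and without WT 2, CRY1 KO 1, CRY1 KO 2 or CRY1 KO 3 (edgeR adjusted p = 0.145, 0.101, 0.145 and 0.0925). Nfe2l1 (NRF1), the regulator that restores proteasome genes after inhibition, stood at 91.8, 76.3 and 76.97 CPM against 109.1, 103.5 and 109.5 CPM. Its groups did not overlap either (log2 difference 0.39, SE 0.10, edgeR adjusted p = 0.0770, DESeq2 adjusted p = 0.0125). Keap1, which holds NRF2 for degradation, stood at 50.1, 47.2 and 43.9 CPM against 42.6, 37.9 and 40.1 CPM (log2 difference -0.23, edgeR adjusted p = 0.203).

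In the list of interferon gamma and class I genes, 13 of 17 (76.5%) were negative, against 52.7% of all tested genes, with a median of -0.17. Of the 17, edgeR called 1 lower, where 0.644% of all tested genes were called lower. This was Nlrc5, the transactivator of class I genes, at 21.2, 16.3 and 19.5 CPM in WT 1, 2 and 3 and at 12.9, 11.1 and 10.2 CPM in CRY1 KO 1, 2 and 3. WT 3 lay within the WT range, unlike in the immunoproteasome subunits, and Nlrc5 fell by 0.74 on the log2 scale (SE 0.13, edgeR adjusted p = 0.0407). That call was lost without library scaling (edgeR adjusted p = 0.0523) and without WT 2, CRY1 KO 1, CRY1 KO 2 or CRY1 KO 3 (edgeR adjusted p = 0.0863, 0.0829, 0.169 and 0.172). The list as a whole differed from Nlrc5 in the place of WT 3. Its median log2 deviations were 0.19, 0.14 and -0.03 in WT 1, 2 and 3 against -0.07, -0.10 and -0.08. There WT 3 lay nearer to the CRY1 KO libraries than to WT 1 and WT 2.

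**Figure D5:**
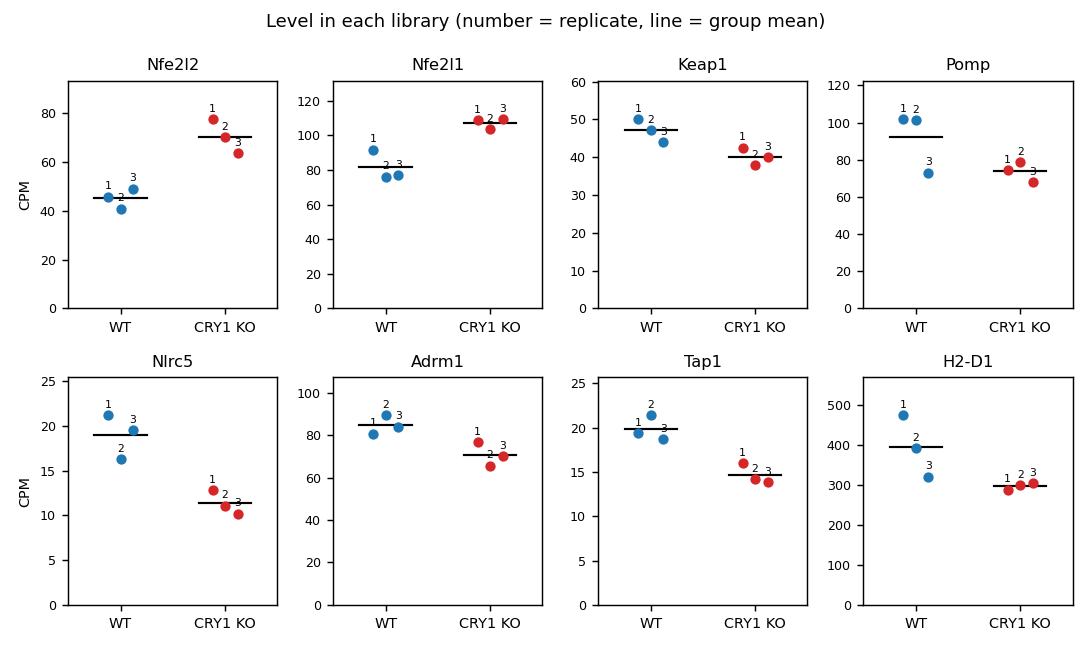
CPM of Nfe2l2, Nfe2l1, Keap1, Pomp, Nlrc5, Adrm1, Tap1 and H2-D1 in each library. Points are libraries marked with their replicate number, lines are group means, and every axis starts at 0. Nfe2l2 lies between 63.5 and 77.6 CPM in the CRY1 KO libraries, above all WT libraries, and Nlrc5 lies between 10.2 and 12.9 CPM, below all of them. H2-D1 was added after its values were seen.

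In the other pathway lists no gene passed the test with edgeR or DESeq2. At an unadjusted edgeR p under 0.05 were 2 of 11 factors of the complex (18.2%) and 2 of 10 shuttles (20%), near the 20.7% of all tested genes. Pomp, the chaperone that matures the core, stood at 102.0, 101.2 and 73.1 CPM in WT 1, 2 and 3 and at 74.4, 78.7 and 68.1 CPM in CRY1 KO 1, 2 and 3, with WT 3 inside the CRY1 KO range (log2 difference -0.32, edgeR adjusted p = 0.228). Adrm1, a ubiquitin receptor of the regulatory particle, stood at 80.8, 89.5 and 84.1 CPM against 76.9, 65.8 and 70.0 CPM, without overlap (log2 difference -0.26, edgeR adjusted p = 0.161). Akirin2, which imports proteasomes into the nucleus, had a difference of 0.22. Among 10 shuttle and unfoldase genes the median was -0.01, with 0.28 in Ubqln4 and 0.29 in Ubqln2, which carry ubiquitinated proteins to the proteasome, and -0.25 in Nsfl1c, a cofactor of the unfoldase Vcp. The 11 genes of ubiquitin and its activation and conjugation had a median of 0.01, with 0 at an unadjusted edgeR p under 0.05. Their smallest p-values belonged to the conjugating enzymes Ube2d3, Ube2r2 and Ube2d2a, with differences of 0.18, 0.18 and 0.15.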

How the data were processed

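The deposited table holds whole-number estimated counts per gene for 6 liver libraries, a kind of expected count. The genome was GRCm39, per the submitters' processing notes, which name HISAT2 2.2.1, StringTie 2.1.7, Trim Galore 0.6.7 and limma 3.42.2 without their roles. The labels' protocols name a stranded mRNA kit, and whether strand was used in counting is not given in the sources used here. Reads of near copies, including Psm pseudogenes, may have been split between genes.

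From these counts, edgeR 4.0.16 (R 4.3.3; TMM scaling, genes with at least 10 counts by its expression filter and 15 in all, robust quasi-likelihood test) compared CRY1 KO with WT, 3 libraries each, with Benjamini-Hochberg adjustment over 13816 genes at 0.05. CPM are relative to TMM library sizes. The SE is the log2 difference divided by the root of the F statistic. DESeq2 1.42.0 and limma 3.58.1 (95% intervals, prior count 2), library size factors (RLE), no scaling, no filter, a replicate block and leaving out each library were the alternatives. CPM per kb used principal transcript lengths from GENCODE on GRCm38, and promoter windows came from RefSeq on GRCm38.p6. No coordinates on GRCm39 are given. The scripts were tested on simulated data.

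Genes were named by a rule: genes that passed, the immunoproteasome subunits and those they replace, Psme1, Psme2, Nfe2l1, Nfe2l2, Cry1, the genes with the smallest p and with the extreme differences of each class, and up to 3 genes of each pathway list. Psma2, Psma4, Psmc1, Psmc3, Psmc4, Psmd5, Psmd8, Psmd12, Psmd13, Psme2b, Psme4, Ddi2, Ngly1, Bach1, Mafg, Mafk, H2-D1, single cell type markers and head-to-head neighbours were named outside it, after their values were seen. One gene of the interferon list, counted in that list, is not reported here. The members and lists were chosen with earlier results of these data known. Endothelial, red cell and B cell markers were also read: 0 of 6, 0 of 5 and 1 of 6 were called by edgeR, the last being Jchain, called lower.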

Additional observations from a re-analysis of the deposited data

How the results depend on the processing

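No proteasome gene was called higher by edgeR, DESeq2 or limma, or with any library left out. The count called lower was 0 with RLE size factors, no scaling, limma, no filter and the replicate block, 4 with DESeq2, and 0 to 8 when 1 library was left out, with the 8 only without WT 3. All genes called across the table numbered 235, against 1284 with DESeq2, 113 with no scaling, 94 with the replicate block and 17 to 844 when 1 library was left out. In the pathway lists 1 gene was called lower (Nlrc5) and 1 higher (Nfe2l2). Without scaling the counts were 0 and 0, with DESeq2 3 and 2, with the replicate block 0 and 0 (edgeR adjusted p = 0.0648 for Nlrc5 and 0.0791 for Nfe2l2), and when 1 library was left out 0 to 5 and 0 to 2. The cause was not tested.

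The replicate numbers did not pair the libraries: deviations of same-numbered libraries from their group means correlated at -0.07, -0.01 and 0.07, so the block shares only a number. With 1 library left out, the medians of 3 classes stayed negative, from -0.13 to -0.24 for the constitutive core, -0.56 to -0.90 for the immunoproteasome and -0.12 to -0.21 for the regulatory subunits. That of the 5 activators ran from -0.34 to 0.05, the last without WT 2. With all 6 libraries it was -0.14, which is the value of the near-silent Psme2b. The median of all 50 genes ran from -0.11 to -0.22. At 79708703 to 91316332 counts per library, the spread between 3 libraries per group, not counting error, limited the subunits, while Psma8, Psme2b and Psmc3ip stood under 1 CPM in every library.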

Other observations

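Of the 40 proteasome genes with a promoter window, 6 (15%, against 11.9% of all genes in the table) lie head to head with another gene: Psma2 with Mrpl32, Psma7 with Ss18l1, Psmb9 with Tap1, Psmc5 with Ftsj3, Psmd10 with Atg4a and Psmd13 with Sirt3. The neighbours' log2 differences (CRY1 KO minus WT) were -0.04, 0.07, -0.43, -0.06, -0.06 and 0.24, and none was called by edgeR. Ftsj3, a ribosome biogenesis methyltransferase, was at -0.06 beside -0.47 in Psmc5, and the difference between neighbours was not tested. Sirt3, a mitochondrial deacetylase, was at 0.24 beside -0.17 in Psmd13.

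The canonical E-box CACGTG, the motif through which the clock factors CLOCK and BMAL1 act and which CRY1 represses, was present on either strand in the 250 bases upstream of 4 of the 40 genes (10%, against 6.86% of all genes in the table). These were Psma4, Psmb10, Psmd9 and Psme3, with log2 differences of -0.13, -0.52, 0.19 and 0.09, all with edgeR adjusted p from 0.222 to 0.533. A match is a description of these letters, not of binding.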
